A study of Mus musculus with 6 samples.

Results

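The TGF-beta ligand, receptor and latent-binder genes were followed in primary mouse renal tubular epithelial cells with and without Setd2, the gene of the histone methyltransferase that trimethylates histone H3 along transcribed gene bodies. The family holds 10 genes, namely 3 ligands (Tgfb1, Tgfb2, Tgfb3), 3 receptors (Tgfbr1, Tgfbr2, Tgfbr3) and 4 latent TGF-beta binding proteins (Ltbp1, Ltbp2, Ltbp3, Ltbp4). They are 10 of the 48526 genes listed, and all 10 were among the 17571 genes with enough reads to be tested. The members were taken by gene symbol. However, the family itself was chosen from the KO against WT values of these same libraries, in which Ltbp2 was much lower in KO. Differences of the 10 genes between KO and WT are therefore given as a description with no p-value. Where a member is marked below as called or not called, that is a label of the fit and no evidence about the member.

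RNA was sequenced from 3 KO and 3 WT libraries of cultured cells. The KO cells came from Setd2(F/F)Ksp-Cre+ mice and the WT cells from Setd2(F/F) mice, so both groups carried the floxed Setd2 alleles and only the KO group carried Cre, and the effects of Cre and of the deletion cannot be told apart. Ksp is the promoter of Cdh16, a cadherin of kidney tubule epithelium, so other cells of a culture would keep their Setd2. Kidneys were taken at 4 to 5 weeks of age, the cortex was digested with liberase and passed through a 40 µm strainer, and the cells were plated in a medium that held 20 ng/ml EGF and 100 nM hydrocortisone, with no step that selects tubular cells. The labels do not say whether the libraries of a group came from separate mice, so the spread between them may be technical in part.

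TGF-beta is made as a precursor whose propeptide stays wrapped around the mature cytokine after cleavage and keeps it silent. Latent TGF-beta binding proteins tether this latent complex to the extracellular matrix, and integrins or proteases free the cytokine. Free ligand brings together the type II receptor (Tgfbr2) and the type I receptor (Tgfbr1), whose kinase phosphorylates Smad2 and Smad3, while Tgfbr3 (betaglycan) is a coreceptor that presents the ligand. In the kidney the pathway is best known for its part in fibrosis and in the dedifferentiation of tubular cells.

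The libraries held 86078636 to 106974842 counts each. Levels are given as CPM, which are counts scaled to the TMM-adjusted library size, and comparisons between genes as RPKM, which is CPM per kilobase of exon. A gene is said to be called when the adjusted p of edgeR's quasi-likelihood test over all tested genes was below 0.05. Over all 17571 genes, 3698 were called (21.0%), 2102 of them higher in KO (12.0%) and 1596 lower (9.08%), and the KO and WT libraries did not overlap in 41.9% of genes. The number called fell to 1683 without KO replicate 1 and to 1933 without KO replicate 3. With upper-quartile scaling 2323 were higher and 1280 lower. Setd2 itself was at 152 to 185 CPM in WT and 154 to 163 CPM in KO (log2 fold change −0.08 ± 0.08 SE, edgeR adjusted p = 0.481), and no source used here names the deleted exons, so its total does not check the deletion. Xist, the RNA that coats the inactive X chromosome, stood at 507 and 606 CPM in KO replicates 2 and 3 and at 0.348 to 0.683 CPM in the other libraries. The labels give no sex. In KO replicates 2 and 3, a difference that goes with high Xist cannot be told apart from a difference of genotype. Both of these libraries are KO, so a fit with a term for them, or without them, sets KO replicate 1 alone against WT. These 2 fits give nearly the same values, are not separate checks and are no adjustment for sex. Why a call is lost in them was not tested.

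The upstream sequences of the ligand genes Tgfb1 and Tgfb2 differ. The 200 bases before the gene start of Tgfb1, Tgfb2 and Ltbp2, the called members whose start is in the promoter table used, are shown 5′ to 3′ on the gene's strand, with matches to the TATA box (TATAAA) and the GC box (GGGCGG) in capitals.
Tgfb1: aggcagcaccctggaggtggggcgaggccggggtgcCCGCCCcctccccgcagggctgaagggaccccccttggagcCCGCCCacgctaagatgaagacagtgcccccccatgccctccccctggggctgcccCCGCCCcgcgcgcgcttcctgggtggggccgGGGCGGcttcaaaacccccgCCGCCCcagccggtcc
Tgfb2: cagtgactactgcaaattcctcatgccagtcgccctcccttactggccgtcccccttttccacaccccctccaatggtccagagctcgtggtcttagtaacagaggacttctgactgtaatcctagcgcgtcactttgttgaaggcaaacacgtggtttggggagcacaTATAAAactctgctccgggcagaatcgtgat
Ltbp2: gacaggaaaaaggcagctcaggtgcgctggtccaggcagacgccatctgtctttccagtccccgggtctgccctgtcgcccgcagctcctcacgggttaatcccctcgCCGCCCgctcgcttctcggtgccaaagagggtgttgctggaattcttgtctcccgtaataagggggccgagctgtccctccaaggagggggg
The windows lie at chr7:25686802-25687001 (plus strand), chr1:186705990-186706189 (minus strand) and chr12:84876533-84876732 (minus strand) of GRCm38.p6, and their bases come from RefSeq. Motifs were searched on both strands, so CCGCCC is the GC box read from the other strand. The Tgfb1 window is 77.5% G and C and holds 5 GC boxes and no TATA box. The Tgfb2 window is 52.5% G and C and holds 1 TATA box, starting 31 bases before the gene start, and no GC box. The Ltbp2 window is 63.5% G and C and holds 1 GC box, no TATA box and 2 matches to CAGAC, the short element that SMAD proteins bind. Over 32843 RefSeq promoters of the same length, 9.96% held TATAAA, 31.1% GGGCGG and 35.5% CAGAC, with a median of 53% G and C. Members that were not called hold such letters too. The Tgfbr1 window is 76% G and C with 2 GC boxes and no TATA box, and the Ltbp3 window holds 2 matches to CAGAC. These matches describe letters, and whether any of them is in use in these cells was not measured.

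The ligand precursors also differ where integrins grip the propeptide. Tgfb1 and Tgfb3 each encode 1 arginine-glycine-aspartate triplet, the motif that integrins with an alpha-v chain pull on to release the cytokine, shown in capitals within 39 coding bases, 5′ to 3′ on the gene's strand.
Tgfb1: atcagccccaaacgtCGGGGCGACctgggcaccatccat
Tgfb3: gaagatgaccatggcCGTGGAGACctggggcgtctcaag
Both stretches lie in exon 5 of 7 of the GENCODE M21 transcript used, at chr7:25697127-25697165 (plus strand) and chr12:86062150-86062188 (minus strand) of GRCm38. The triplet starts at residue 244 of 390 in Tgfb1 and at residue 261 of 412 in Tgfb3, which is 35 and 40 residues before the mature cytokine of 112 residues. The 442 codons of Tgfb2 hold 0 such triplets. Tgfb1 and Tgfb3, the ligands with the integrin motif, were the ones at a higher level in KO, and Tgfb2, without it, was the one at a lower level. The motif is part of the protein and the levels are of RNA, and a link between them was not tested.

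Tgfb1, the most abundant ligand gene, was higher in every KO library. Tgfb1 (ENSMUSG00000002603, chr7:25687002-25705077, plus strand) was at 22.6, 29.3 and 23.9 CPM in WT and at 46.0, 41.8 and 50.0 CPM in KO. The groups did not overlap, and the lowest KO library stood well above the highest WT library. The means were 25.3 ± 3.56 (SD, n = 3) and 45.9 ± 4.09 CPM (SD, n = 3), a log2 fold change of 0.86 ± 0.11 (SE), or 1.81-fold. It rested on 1953 to 4905 reads per library. Over the 16 alternative fits, which reuse these libraries, the log2 fold change lay between 0.79 and 0.98. In these bulk cultures, more cells that express a gene and more RNA of it per cell cannot be told apart, here and for every gene that follows.

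Tgfb3, the least abundant ligand gene in WT, was also higher in every KO library. Tgfb3 (ENSMUSG00000021253, chr12:86056745-86079041, minus strand) was at 3.18, 5.17 and 4.54 CPM in WT and at 7.65, 8.03 and 9.11 CPM in KO. The WT libraries spread more than the KO libraries, with WT replicate 1 the lowest, and the groups did not overlap. The means were 4.30 ± 1.01 and 8.26 ± 0.753 CPM (SD, n = 3 each), a log2 fold change of 0.94 ± 0.16 (SE), or 1.92-fold. The log2 fold change was 0.83 ± 0.23 (SE) with a term for the libraries with high Xist and 0.83 ± 0.24 (SE) without those libraries. Both fits rest on KO replicate 1 alone. The Tgfb3 locus overlaps Ttll5 on the other strand, with no exon bases in common, and Ttll5 was at 28.8 to 34.3 CPM in the 6 libraries. Tgfb3 shares 163 exon bases with Gm37804, which had at most 2 reads per library, and 257 with Gm48008, which was not analysed here, and 8.79% of its 50-base stretches are shared with other genes.

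Tgfb2 was the ligand gene that was lower in KO. Tgfb2 (ENSMUSG00000039239, chr1:186622792-186705989, minus strand) was at 10.6, 12.4 and 11.7 CPM in WT and at 6.08, 5.58 and 7.73 CPM in KO. Every KO library lay below every WT library, and KO replicate 3 was the nearest to WT. The means were 11.6 ± 0.898 and 6.46 ± 1.13 CPM (SD, n = 3 each), a log2 fold change of −0.84 ± 0.13 (SE), so that the WT level was 1.79 times the KO level. The log2 fold change lay between −0.99 and −0.74 over the alternative fits. An antisense gene over its first exon, Gm29491, had 1 to 3 reads per library.

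**Figure D1:**
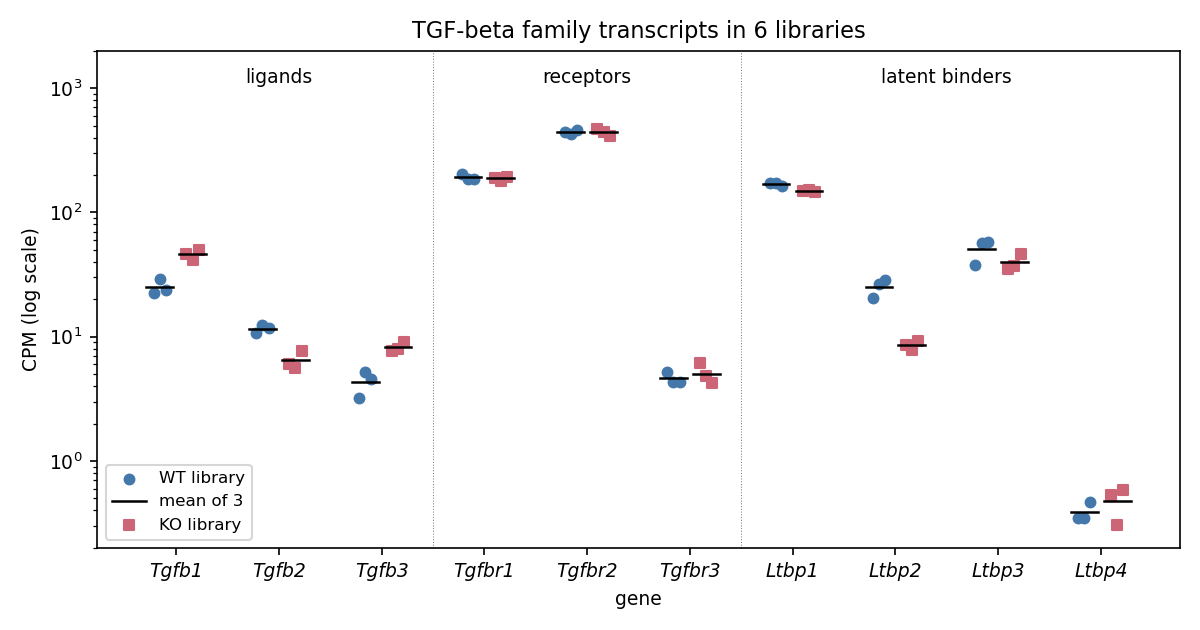
Level of each of the 10 genes in each of the 6 libraries (points, CPM on a log scale), with the mean of the 3 libraries of a group as a bar. Tgfb1 and Tgfb3 lie higher in all KO libraries. Tgfb2, Ltbp2 and, by a small margin, Ltbp1 lie lower in all of them, and the Tgfbr1 and Tgfbr2 points of both groups lie on top of each other.

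The mix of ligand transcripts differed accordingly. Per length, Tgfb1 made up 60.6% ± 1.73 of the summed ligand RPKM in WT and 71.9% ± 1.26 in KO (SD, n = 3 each). Tgfb2 made up 25.3%, 22.6% and 24.9% in the WT libraries and 8.44%, 8.29% and 9.58% in the KO libraries. Tgfb3 went from 15.2% ± 1.96 to 19.3% ± 1.12 of the sum and so passed Tgfb2 in rank. The ratio of Tgfb1 to Tgfb2 was 2.36 to 2.72 in WT and 7.42 to 8.69 in KO. The ratio of Tgfb3 to Tgfb2 was 0.631 ± 0.104 in WT and 2.21 ± 0.230 in KO (SD, n = 3 each), so Tgfb2 exceeded Tgfb3 in every WT library and Tgfb3 exceeded Tgfb2 in every KO library. The ratio of Tgfb1 to Tgfb3, the genes that were both higher in KO, was 4.04 ± 0.645 in WT and 3.73 ± 0.276 in KO, and the libraries overlapped. The summed ligand level was 8.28 ± 1.13 RPKM in WT and 12.7 ± 1.17 RPKM in KO (SD, n = 3 each).

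**Figure D2:**
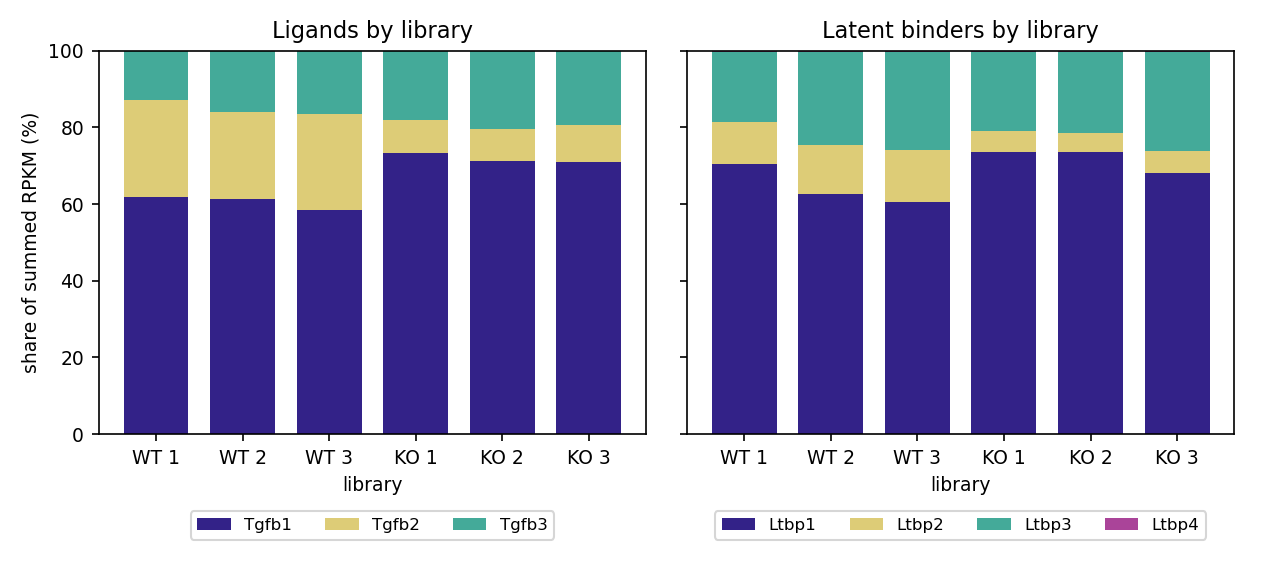
Share of each gene in the summed RPKM of the 3 ligands (left) and of the 4 latent binders (right), in percent, with 1 bar for each library. The Tgfb2 band shrinks from 22.6% to 25.3% in the WT bars to 8.29% to 9.58% in the KO bars, the Ltbp2 band is thinner in all KO bars, and Ltbp4 is too scarce to be seen.

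The receptor genes differed little between the groups. Tgfbr2, the ligand-binding type II receptor kinase (ENSMUSG00000032440, chr9:116084293-116175360, minus strand), was at 444, 428 and 463 CPM in WT and at 470.0, 444 and 413 CPM in KO. Both the highest and the lowest library were KO libraries, and the log2 fold change was −0.01 ± 0.08 (SE). Tgfbr1, the type I receptor kinase that phosphorylates the SMAD proteins (ENSMUSG00000007613, chr4:47353222-47414931, plus strand), was at 202, 185 and 186 CPM in WT and at 189, 179 and 195 CPM in KO. The groups overlapped, with a log2 fold change of −0.03 ± 0.07 (SE). The ratio of Tgfbr2 to Tgfbr1 per length was 1.86 ± 0.115 in WT and 1.89 ± 0.166 in KO (SD, n = 3 each). Over the 16 alternative fits the log2 fold change stayed between −0.06 and 0.03 for Tgfbr1 and between −0.04 and 0.08 for Tgfbr2.

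Tgfbr3, the betaglycan coreceptor (ENSMUSG00000029287, chr5:107106570-107289629, minus strand), was scarce beside the signalling receptors. It was at 5.21, 4.36 and 4.33 CPM in WT and at 6.09, 4.80 and 4.28 CPM in KO, with overlapping groups and a log2 fold change of 0.13 ± 0.15 (SE). With a term for the libraries with high Xist the value was 0.40 ± 0.18 (SE). Per length, Tgfbr3 was 0.839% ± 0.0787 of the summed receptor RPKM in WT and 0.922% ± 0.132 in KO (SD, n = 3 each). The summed receptor level was 84.3 ± 2.65 RPKM in WT and 83.5 ± 3.35 RPKM in KO.

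Ltbp2 differed most of the 10 genes. Its product belongs to the latent binder family by sequence but is known to bind fibrillin microfibrils and not the latent TGF-beta complex. Ltbp2 (ENSMUSG00000002020, chr12:84783212-84876532, minus strand) was at 20.4, 26.7 and 28.4 CPM in WT and at 8.54, 7.82 and 9.26 CPM in KO. The KO libraries lay close together and all of them below the lowest WT library, WT replicate 1. The means were 25.2 ± 4.19 and 8.54 ± 0.717 CPM (SD, n = 3 each), a log2 fold change of −1.56 ± 0.13 (SE), so that the WT level was 2.95 times the KO level. It rested on 1764 to 2838 reads in WT and 745 to 909 reads in KO, and the log2 fold change lay between −1.68 and −1.47 over the alternative fits.

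The antisense gene D030025P21Rik shares 764 exon bases with the start of Ltbp2, and whether the counting used strand is not stated in the sources used here. It had 40, 70 and 69 reads in WT and 24, 22 and 36 reads in KO, few beside those of Ltbp2, and a log2 fold change of −1.08 ± 0.27 (SE, edgeR adjusted p = 0.0186). Reads of these 2 genes may not be told apart where they overlap. No stretch of 50 bases was shared between any members, so a read of that length matches 1 member at most. Of the 50-base stretches of Ltbp2, 8.58% were shared with another gene, all of them with D030025P21Rik.

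The other latent binders differed less. Ltbp1, which tethers the latent complex to matrix (ENSMUSG00000001870, chr17:75005568-75392512, plus strand), was at 172, 171 and 163 CPM in WT and at 148, 152 and 145 CPM in KO. Every KO library lay below every WT library, yet the difference was small, with means of 169 ± 5.08 and 148 ± 3.10 CPM (SD, n = 3 each) and a log2 fold change of −0.19 ± 0.07 (SE). The log2 fold change of Ltbp1 lay between −0.21 and −0.16 over the alternative fits. Ltbp3, the binder known from bone and lung (ENSMUSG00000024940, chr19:5740904-5758532, plus strand), was at 37.8, 56.7 and 58.2 CPM in WT and at 34.9, 37.1 and 46.7 CPM in KO. WT replicate 1 lay among the KO libraries, so the groups overlapped, and the log2 fold change was −0.36 ± 0.16 (SE). Over the 16 alternative fits the log2 fold change of Ltbp3 lay between −0.55 and −0.26. Ltbp4, a binder with a known role in elastic fibre assembly (ENSMUSG00000040488, chr7:27305136-27337692, minus strand), had only 29 to 57 reads per library, or 0.305 to 0.581 CPM, with overlapping groups and a log2 fold change of 0.29 ± 0.29 (SE).

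Within the latent binders, Ltbp1 made up 64.5% ± 5.30 of the summed RPKM in WT and 71.7% ± 3.15 in KO (SD, n = 3 each). Ltbp2 made up 12.5% ± 1.42 in WT and 5.39% ± 0.377 in KO, and Ltbp3 22.7% ± 3.89 and 22.5% ± 2.88. The ratio of Ltbp1 to Ltbp2 was 4.40 to 6.44 in WT and 12.0 to 14.8 in KO. The summed level of the 4 binders was 24.5 ± 1.52 RPKM in WT and 19.4 ± 0.582 RPKM in KO (SD, n = 3 each), the KO libraries all being below the WT libraries.

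**Figure D3:**
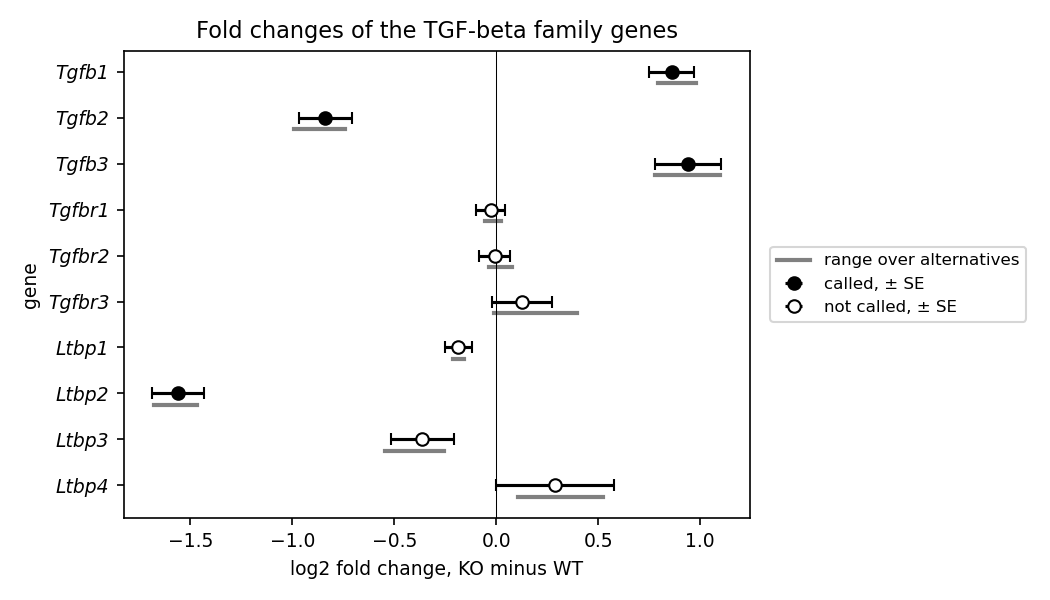
Log2 fold change of each gene, KO minus WT, with its SE (points and black bars, filled where called) and the range over the 16 alternative fits (grey bars; 15 fits for Ltbp4). Tgfb1 and Tgfb3 lie near 0.9, Tgfb2 near −0.84 and Ltbp2 at −1.56, and the receptors lie around 0. The genes were chosen on this contrast, so the filling of the points is a description.

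Of the 10 genes, 4 were called, or 40%, with 2 higher and 2 lower in KO, beside 21.0% called over all genes, and 5 of 10 did not overlap between the groups, beside 41.9% of all genes. The median log2 fold change of the 10 genes was −0.02 and that of all tested genes −0.01. Because the family was chosen on this contrast, nothing is read from these shares. In WT the order of the levels per length was Tgfbr2 (54.3 RPKM), Tgfbr1 (29.3), Ltbp1 (15.8), Ltbp3 (5.61 ± 1.26), Tgfb1 (5.02 ± 0.707), Ltbp2 (3.08), Tgfb2 (2.0), Tgfb3 (1.27), Tgfbr3 (0.708) and Ltbp4 (0.0599). Neighbours in this order did not overlap over the 3 libraries, except Ltbp3 and Tgfb1. Lengths here are the union of all annotated exons, and per coding length Tgfb1 (21.6) stood above Ltbp3 (13.5) and Tgfb2 (8.72) above Ltbp2 (4.64), with the other ranks as before. The ligand shares above use the union of exons too.

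The genes whose levels were most like those of Ltbp2 over the 6 libraries were Snn (Pearson r = 0.9961 of log2 CPM), Nuak1 (0.9957) and Ccdc80 (0.9947), taken from 11505 tested genes with a mean of at least 2 CPM. Among those genes 219 had an r above 0.95, and the 6 points share the genotype split, so the likeness is a description. The levels of Nuak1, a kinase of the AMPK family, were 107, 114 and 119 CPM in WT and 83.5, 81.9 and 88.7 CPM in KO, a much smaller difference than that of Ltbp2.

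The genes around the family were read from 4 lists of 76 genes that hold no member, of which 72 were tested. Of these, 21 were called (29.2%, beside 21.0% over all genes), 13 higher and 8 lower in KO, with a median log2 fold change of 0.07. The count was 12 without WT replicate 2, 9 without KO replicate 1 and 8 without KO replicate 3. It was also lower once the libraries with high Xist had a term of their own or were left out, fits that rest on KO replicate 1 alone. The genes called in all alternative fits were 5, namely Thbs1, Lrrc32, Tll1, Bgn and Fn1.

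Genes that hold TGF-beta latent or free it moved in both directions. Of 21 listed, 19 were tested and 8 were called, 4 higher and 4 lower (42.1%, beside 21.0% over all genes), with a median log2 fold change of 0.09. The count was 5 without KO replicate 1. It was also lower with the Xist term or without the libraries with high Xist, fits that rest on KO replicate 1 alone. Tll1, a tolloid-like protease that cleaves matrix proteins and latent binders, fell from 19.7 ± 2.05 to 6.28 ± 0.600 CPM (log2 fold change −1.65 ± 0.11 SE, edgeR adjusted p = 1.13e-05), a fall that was known from earlier results when the list was written. Thbs1, thrombospondin, which can activate the latent complex, was at 6127, 5815 and 6177 CPM in WT and at 3743, 3879 and 4460 CPM in KO, with every KO library below WT (−0.58 ± 0.10 SE, edgeR adjusted p = 0.00214). Lrrc32, which encodes GARP, the cell-surface anchor of latent TGF-beta, rose from 3.15 ± 0.619 to 6.29 ± 1.13 CPM (1.00 ± 0.17 SE, edgeR adjusted p = 0.00262). Emilin1, a secreted inhibitor of precursor processing, rose from 1.09 ± 0.187 to 2.21 ± 0.608 CPM (edgeR adjusted p = 0.00821), a call lost in both fits that take Xist into account.

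The integrin chains were read beside the arginine-glycine-aspartate motif of Tgfb1 and Tgfb3. The most abundant, Itgb1, averaged 2967 ± 273 CPM (WT) and 2881 ± 86.4 CPM (KO), and Itgav, the alpha-v chain, at 753 ± 86.4 and 765 ± 47.2 CPM (edgeR adjusted p = 0.775 and 0.89). Itgb6, the epithelial partner of Itgav, was at 135 ± 7.42 and 137 ± 14.1 CPM and was not called. Itgb3 rose from 28.0 ± 4.74 to 43.4 ± 7.23 CPM (0.63 ± 0.14 SE, edgeR adjusted p = 0.00919), a call lost in both fits that take Xist into account. Itgb8 fell from 5.07 ± 0.723 to 3.58 ± 0.209 CPM (−0.50 ± 0.13 SE, edgeR adjusted p = 0.0231), a call lost in 7 of 16 alternative fits. Furin, the protease that cleaves the ligand precursors, averaged 224 ± 39.0 CPM (WT) and 269 ± 11.2 CPM (KO), not called (edgeR adjusted p = 0.114). Mmp2, a gelatinase, rose (0.94 ± 0.24 SE, edgeR adjusted p = 0.0189), a call lost with the Xist term and without KO replicate 1 or KO replicate 3. Fbn1, the fibrillin that carries the latent binders, fell (−0.39 ± 0.12 SE, edgeR adjusted p = 0.041), a call lost in 10 of the 16 alternative fits. Itgav, Itgb3, Itgb6, Itgb8, Furin, Mmp2 and Fbn1 were named after their values were seen.

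Coreceptors and modulators gave 2 calls among 11 tested of 13 listed (18.2%, below the 21.0% over all genes), with a median log2 fold change of 0.07, and 1 of the 2, Bgn, was called in all alternative fits. Bgn, biglycan, a small matrix proteoglycan that binds TGF-beta, was at 6.21, 6.96 and 7.36 CPM in WT and at 16.1, 8.29 and 15.9 CPM in KO (0.97 ± 0.21 SE, edgeR adjusted p = 0.00792), with KO replicate 2 near WT. Dab2, an endocytic adaptor that carries receptors, rose from 26.4 ± 1.11 to 34.7 ± 4.46 CPM (0.39 ± 0.10 SE, edgeR adjusted p = 0.0181), a call lost in 4 of the 16 alternative fits. The most abundant members, Fkbp1a (402 ± 29.1 and 423 ± 18.7 CPM) and Nrp1 (292 ± 14.5 and 265 ± 16.5 CPM), were not called.

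SMAD proteins and their regulators gave 4 calls among 18 (22.2%, near the 21.0% over all genes), 2 higher and 2 lower, with a median log2 fold change of −0.05, and none of the 4 held with the Xist term, without the libraries with high Xist, or without KO replicate 1 or KO replicate 3. The count was 2 with the replicate block, 2 without WT replicate 2 or WT replicate 3, and 1 without KO replicate 2. Smad2, a direct substrate of Tgfbr1, fell from 163 ± 11.1 to 132 ± 6.77 CPM (−0.31 ± 0.08 SE, edgeR adjusted p = 0.0171). Its partner substrate Smad3 was at 319 ± 9.92 and 311 ± 9.35 CPM (edgeR adjusted p = 0.727), and the shared Smad4 was not called either (edgeR adjusted p = 0.565). Of the corepressors, Ski rose (0.31 ± 0.09 SE, edgeR adjusted p = 0.0407) and Tgif1 fell (−0.22 ± 0.07 SE, edgeR adjusted p = 0.0407), and Tgif1 lost its call in every leave-one-out fit. The coactivator Crebbp rose (0.24 ± 0.08 SE, edgeR adjusted p = 0.046), and Smurf1, a ubiquitin ligase of the receptors, was at 234 ± 16.0 and 235 ± 13.9 CPM.

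Known target genes of TGF-beta signalling moved in both directions. Of 24 listed and tested, 7 were called (29.2%, beside 21.0% over all genes), 5 higher and 2 lower, with a median log2 fold change of 0.23. The count was 3 without WT replicate 2, 11 without WT replicate 3, 2 without KO replicate 1 and 1 without KO replicate 3. It was 12 with no filter on low counts. With the Xist term or without the libraries with high Xist it was below 7, in fits that rest on KO replicate 1 alone. Fn1, fibronectin, fell from 5957 ± 97.6 to 4028 ± 315 CPM (−0.56 ± 0.09 SE, edgeR adjusted p = 0.00206). Ccn2, connective tissue growth factor, fell from 1581 ± 63.2 to 1294 ± 64.7 CPM (−0.29 ± 0.08 SE, edgeR adjusted p = 0.0267). Tgfbi, a matrix protein named for its induction by TGF-beta, rose from 0.991 ± 0.377 to 2.0 ± 0.253 CPM (1.01 ± 0.24 SE, edgeR adjusted p = 0.014), and Col3a1 rose from 3.33 ± 0.697 to 5.77 ± 1.74 CPM (edgeR adjusted p = 0.0268), with KO replicate 2 inside the WT range. The calls of Ccn2, Tgfbi and Col3a1 were each lost in 4 to 6 of the 16 alternative fits. The other 3 called genes, Col1a1, Snai1 and Plaur, rose with adjusted p-values of 0.0409 to 0.0488 by edgeR's test, and lost their calls in 9 of 16, 8 of 15 and 5 of 16 alternative fits. The feedback inhibitors Smad7 and Skil were not called (edgeR adjusted p = 0.199 and 0.168). Smad4, Smad7, Skil, Col1a1, Snai1 and Plaur were named after their values were seen.

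**Figure D4:**
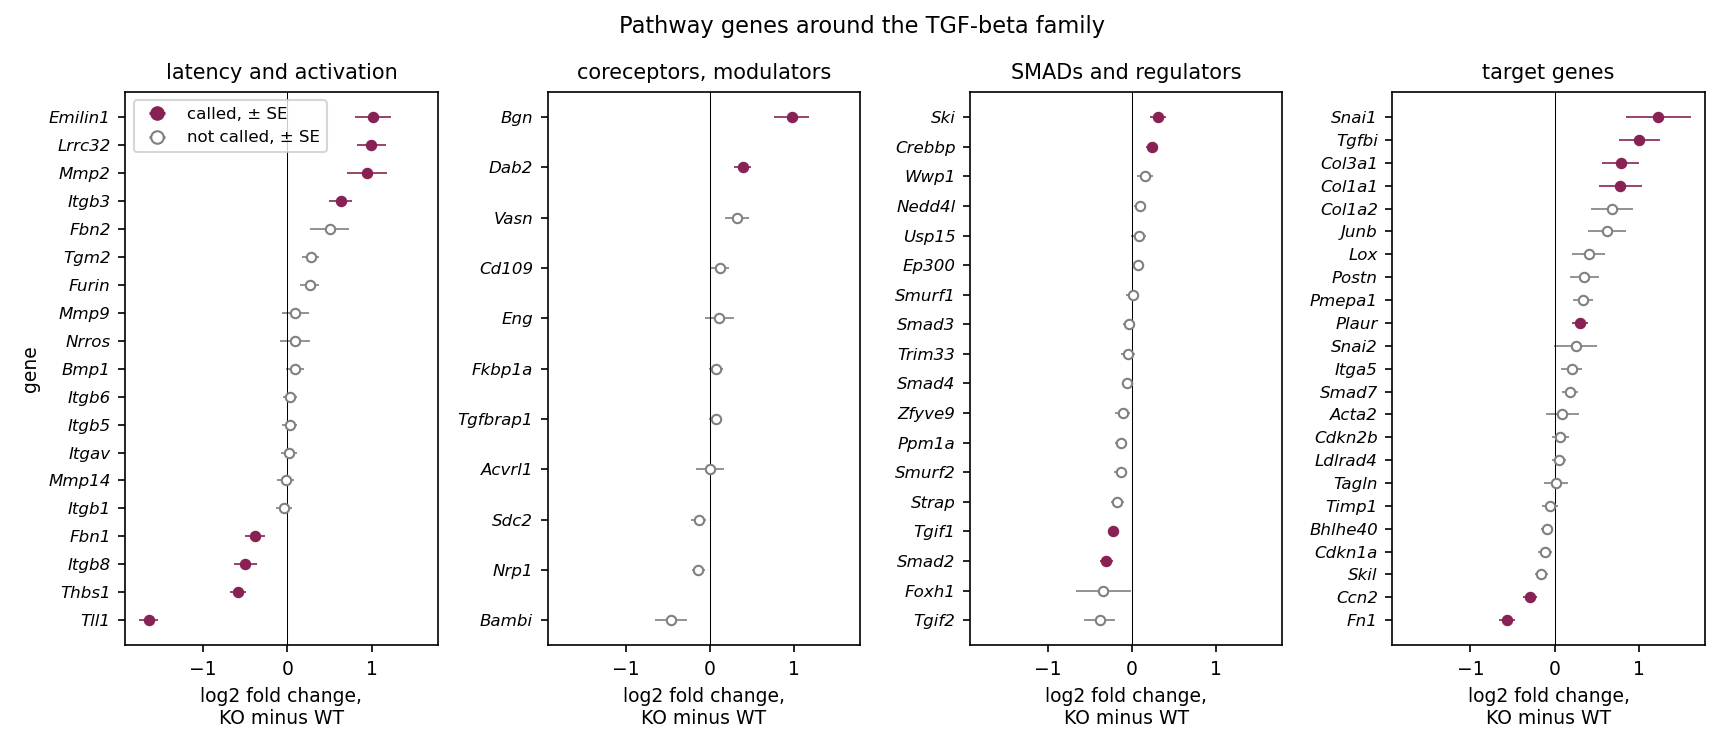
Log2 fold change, KO minus WT, of 71 of the 72 tested genes of the 4 lists, with the SE as a bar, each list ordered by its fold changes and called genes filled. Called genes lie on both sides of 0 in every list except the coreceptors and modulators, where both called genes, Bgn and Dab2, lie above 0.

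Markers of other cortical cells moved with the groups, beside the ligand and pathway values above, and their part in those values was not tested. The summed level of 13 fibroblast and pericyte markers was 25.0 to 36.4 CPM in WT and 41.3 to 63.5 CPM in KO, with 7 of 10 tested genes called higher, beside 12.0% of all genes, and the defining genes Dcn, Lum and Dpt were at or below 0.159 CPM. Col1a1, Col1a2 and Col3a1 stand in both this list and the target list. The sums were 22.3 to 24.0 and 32.6 to 44.4 CPM for 13 endothelial markers (7 of 13 called higher), 40.4 to 47.8 and 52.6 to 61.4 CPM for 13 leukocyte markers (6 of 12), and 117 to 119 and 184 to 222 CPM for 10 podocyte markers (6 of 10). None of these 4 sums overlapped between the groups, each with an exact two-sided permutation p of 0.1, the smallest that 3 against 3 libraries can give. The T cell gene Cd3e was at 0 in 5 of the 6 libraries. Tubule markers, led by Krt8, Krt18 and Cdh1, summed to 6483 to 7522 CPM in WT and 7444 to 7518 CPM in KO (exact permutation p = 0.4), a sum carried by the keratins. Of 14 tested tubule markers 4 were called, all higher in KO, namely Cdh16, Pax2, Lrp2 and Slc12a3, and the proximal tubule transporter Slc34a1 was at 0 in 5 libraries.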

How the data were processed

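For each of the 6 libraries the authors deposited raw read counts by Ensembl gene, as whole numbers without normalization. Per the submitters' processing notes, the build was mm10 and the tools were HTSeq 0.11.2, STAR 2.7.1a and Trimmomatic 0.38. Not given in the sources used here are the annotation release, the strand setting and what was done with reads of several genes, which matters where genes overlap. Groups come from the sample titles. Symbols and exon lengths came from GENCODE M21 and matched 48144 of 48526 genes.

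The test was that of edgeR 4.0.16 under R 4.3.3: filterByExpr, TMM factors and a quasi-likelihood fit with genotype as its term, with Benjamini-Hochberg adjustment over 17571 genes. Dividing the absolute log2 fold change by the root of the F statistic gave the SE. The fit was tested on simulated data. Chi-square tests of replicate pairs found no library that copied another. The 16 alternative fits were the replicate block, DESeq2 size factors, library totals, upper-quartile factors, 2 other filters, DESeq2 1.42.0, limma-voom (limma 3.58.1), a term for or omission of the libraries with Xist above 10 CPM, and each library left out. Figures were drawn with matplotlib 3.10.9.

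The members and lists were chosen with earlier results of these data known. Named genes are the members, Setd2, from each pathway list up to 4 called genes by smallest adjusted p and the 2 most abundant, the 3 genes most like Ltbp2 in log2 CPM (prior count 2), and defining markers. Of the members, 8 of 10 have an entry in the RefSeq promoter table; Tgfb3 and Tgfbr3 do not. The values of 1 listed pathway gene are not reported here.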

Additional observations from a re-analysis of the deposited data

How the results depend on the processing

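The number of family members past the threshold ranged from 3 to 5 over the 16 alternative fits, which reuse the libraries the family was chosen on and so support nothing about it. The number of genes called over the whole table was 1163 with a term for the libraries with high Xist, 907 without those libraries, and 1683 to 3766 when 1 library was left out. The number of pathway genes called was 5 with that term, 7 without those libraries, and 8 to 23 when 1 library was left out. Fewer samples enter the fits that leave libraries out; otherwise the cause was not tested. With the replicate block, 3594 genes, 5 members and 23 pathway genes were called. Deviations of same-numbered libraries correlated at 0.0417, −0.146 and 0.0324 for replicates 1, 2 and 3, and not every library correlated best with its own number, so the numbers are not taken as pairs. Among the pathway genes called in the main fit, the block removed the calls of Tgif1 and Crebbp. Per coding length, a choice made after seeing the data, every level was higher than per exon length. A length from RefSeq proteins was not run. Reads limit Ltbp4 most, with 29 to 57 per library.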

Other observations

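Ltbp2 and Ltbp4 belong with the proteins of elastic fibres and microfibrils, so 16 further genes of those fibres were read from the same fit, in a list written after the files were opened but before its values were read. Of these, 14 were tested and 6 were called (42.9%, beside 21.0% over all genes), 4 higher and 2 lower in KO, with a median log2 fold change of 0.02. Efemp1, fibulin-3, was at 59.9, 52.4 and 47.3 CPM in WT and at 120.5, 117 and 111 CPM in KO, and it rose by 1.13 ± 0.09 (log2 fold change ± SE, edgeR adjusted p = 2.56e-05). Adamtsl4, a secreted protein that binds fibrillin microfibrils, rose from 25.9 ± 4.19 to 44.4 ± 2.90 CPM (0.78 ± 0.11 SE, edgeR adjusted p = 0.00112). Efemp2, fibulin-4, which is needed for elastic fibre assembly, fell from 24.3 ± 5.89 to 15.6 ± 0.821 CPM (−0.64 ± 0.15 SE, edgeR adjusted p = 0.0133). Its WT replicate 1, at 17.6 CPM, lay close to KO replicate 3, at 16.6 CPM. Fbln5, fibulin-5, fell from 3.48 ± 0.0863 to 2.32 ± 0.551 CPM (−0.58 ± 0.17 SE, edgeR adjusted p = 0.033). The lysyl oxidase family members Loxl2 and Loxl4, which cross-link matrix proteins, rose (edgeR adjusted p = 0.0237 and 0.0228), though the groups overlapped for Loxl4. Eln, elastin itself, averaged 0.978 ± 0.120 CPM (WT) and 0.763 ± 0.0984 CPM (KO), not called. The called fibulin genes thus differed in direction among themselves, as the ligand genes did. Fbln1 and Fbln2 were not called (edgeR adjusted p = 0.358 and 0.939). The genes named here were picked after their values were seen. The count of called genes was 2 without WT replicate 2 and 3 without KO replicate 1. It was also lower without the libraries with high Xist, a fit that rests on KO replicate 1 alone.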
